A study of Mus musculus with 8 samples.

Results

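The genes described here are 39 mouse enzymes that add methyl groups to histone lysines or remove them and are taken from a list of names, drawn up with earlier results of these data known. All 39 were found among the 37620 genes of the deposited tables, 34 by the symbol used here and 5 by their current symbol (Whsc1 as Nsd2, Whsc1l1 as Nsd3, Setd8 as Kmt5a, Suv420h1 as Kmt5b, Suv420h2 as Kmt5c). They comprise 23 methyltransferases (writers), 15 demethylases (erasers) and Kmt2e, a SET domain protein grouped with neither because its own activity on histones is disputed. RNA was sequenced from flow-sorted epithelial cells of the mouse small intestine, in a series on hydroxymethylcytosine during intestinal differentiation. The 4 CD24Mid libraries (numbered 1, 3, 5 and 7) came from cells with an intermediate amount of the surface protein CD24, a fraction that the submitters also name CD24low. The 4 CD24Neg libraries (numbered 2, 4, 6 and 8) came from cells lacking CD24. In both, cells carrying the leukocyte antigen CD45 or binding the Ulex lectin had been removed, and the submitters call the libraries of a group biological replicates. The sources used here do not give the strain, age or sex of the mice, any pooling, or whether each library came from its own animal, so the p-values measure only the spread between these libraries.

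Lysine methylation of histone tails marks chromatin states. Methylation of H3K4 and H3K36 is found at active promoters and along transcribed genes, that of H3K9 and H3K27 at silenced chromatin, while methylation of H4K20 is tied to the cell cycle and to compaction, and that of H3K79 to transcribed genes. SET domain enzymes and Dot1l write these marks, while the flavin enzymes Kdm1a and Kdm1b and the larger family with a JmjC domain erase them. In the small intestine, dividing crypt cells replace the absorptive and secretory cells of the villus, and chromatin regulators of this kind have been studied as controls of that turnover.

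The libraries held between 11340782 and 18928233 reads unique to 1 gene. Of the marker lists, all 27 genes of dividing cells and all 9 of crypt base stem cells were higher in CD24Mid, and all 12 of enterocytes were higher in CD24Neg. Markers of sorted-out or minor cells also differed: 5 of 6 B or plasma cell genes (summed level 394 to 1011 CPM in CD24Mid, against 22.6 to 53.8 CPM in CD24Neg, where CPM are gene-unique counts on a common library size scaled by TMM) and 7 of 9 enteroendocrine genes were higher in CD24Mid, while all 7 T or NK lymphocyte genes (5.44 to 15.7 CPM in CD24Mid, against 30.7 to 533 CPM in CD24Neg) and 4 of 6 goblet cell genes were higher in CD24Neg. Of 5 myeloid genes tested, Lyz2, Csf1r and Cd14 were higher in CD24Mid (summed level of the list 29.0 to 48.6 CPM in CD24Mid, against 13.9 to 34.3 CPM in CD24Neg). Of 5 Paneth cell genes, 1 was higher in CD24Mid. Tuft cell genes summed to 3.64 to 9.90 CPM in CD24Mid, against 2.91 to 10.3 CPM in CD24Neg, with Pou2f3 higher in CD24Mid and no read of Il25. Stromal or endothelial genes summed to 8.78 to 12 CPM in CD24Mid, against 2.31 to 11 CPM in CD24Neg, with Vim higher in CD24Mid. Mitochondrial genes took 8.03% to 9.17% of the unique reads in CD24Mid and 27.7% to 37.0% in CD24Neg. The part of these differences in the values below was not tested, apart from a fit without mitochondrial genes.

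The enzymes were all expressed in both groups, and most of them differed little. Of the 39, 15 were called as higher in CD24Mid and 9 as higher in CD24Neg, and 15 were not called by edgeR's quasi-likelihood test at an adjusted p under 0.05. Over all 12840 genes tested, 69.8% were called, 35.5% as higher in CD24Mid and 34.3% as higher in CD24Neg, so the 61.5% called among the enzymes was near that background. Only 4 of the 39 (10.3%) differed by more than 2-fold, against 39.4% of all genes, and these 4 were all higher in CD24Mid, as were 20.7% of all genes by this margin. Counting libraries alone, 13 of the 39 had all CD24Mid libraries above all CD24Neg libraries, 10 had all CD24Neg libraries above and 16 overlapped, while over all genes 64.4% did not overlap (33% with CD24Mid above, 31.4% with CD24Neg above). The median log2 fold change, CD24Mid over CD24Neg, was -0.02 over the enzymes and 0.02 over all genes. In these bulk libraries, fewer cells that express a gene and less RNA of it per cell cannot be told apart.

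Writers and erasers did not divide cleanly between the groups. Of the 23 writers, 10 were higher in CD24Mid and 3 in CD24Neg, with a median log2 fold change of 0.16. Of the 15 erasers, 5 were higher in CD24Mid and 6 in CD24Neg, with a median of -0.13. All 15 enzymes higher in CD24Mid with TMM were also called so with both other scalings, while the decreases depended on the scaling: with upper-quartile scaling 18 of the 39 were higher in CD24Mid and 5 in CD24Neg (background 70.9% called, 43.6% and 27.3% by direction), and on unscaled library totals 35 were higher in CD24Mid and 4 were not called (background 82.7% called, 69.8% as higher in CD24Mid). The median log2 fold change over all genes was 0.24 and 0.96 on these scales, a shift shared by all genes that on unscaled totals exceeds the size of every decrease among the 39. Both shifts are toward CD24Mid, so these scalings could only enlarge the increases, and the kept calls are no check on them. Of the 9 enzymes higher in CD24Neg with TMM, Kdm5b, Kdm4b, Kdm6b, Suv420h1 and Suv420h2 kept the call with upper-quartile scaling, and Kmt2b, Kdm5c, Kdm3a and Kdm2a lost it.

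**Figure D1:**
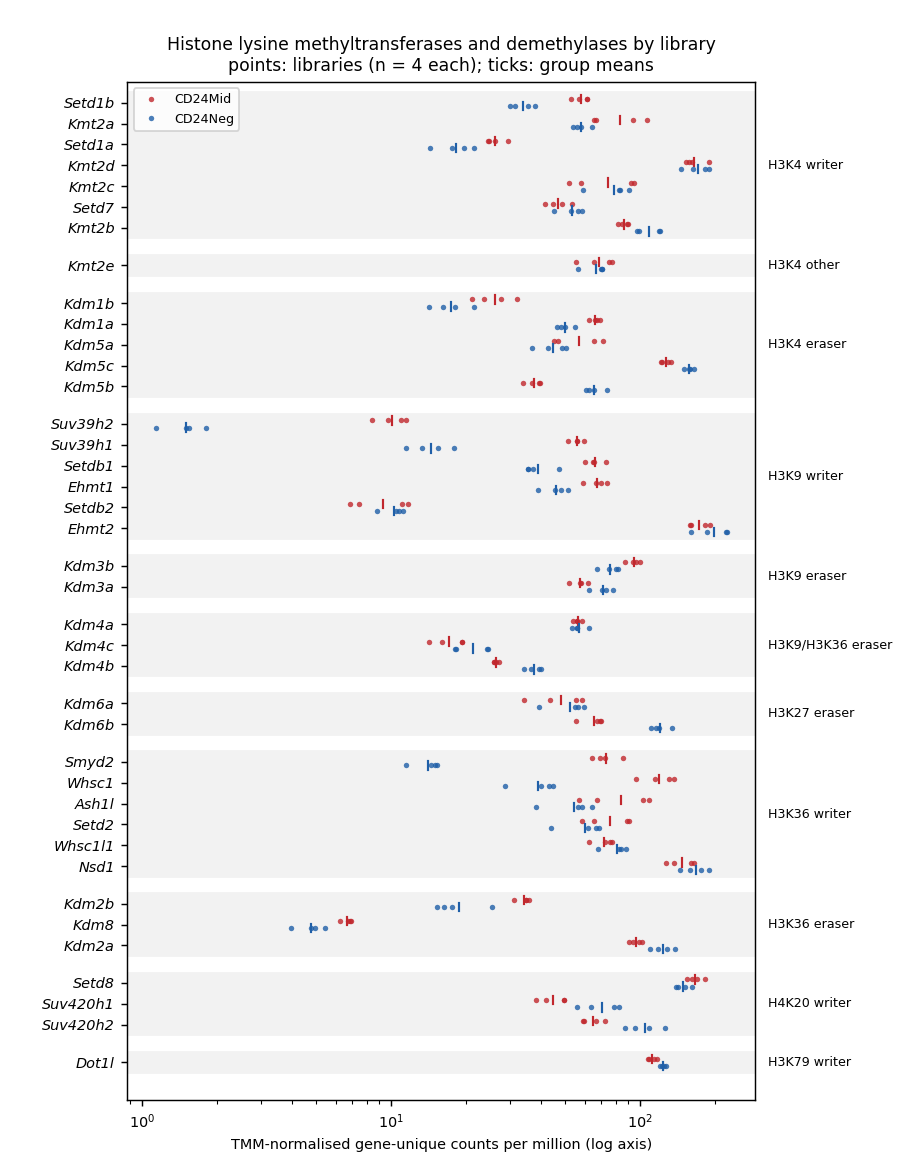
Normalised gene-unique counts in CPM (log axis) of the 39 enzyme genes, grouped by target residue and role; red points are the 4 CD24Mid libraries, blue points the 4 CD24Neg libraries, and ticks the group means. Suv39h2, Suv39h1, Smyd2 and Whsc1 stand apart by the gap between red and blue, while 16 of the 39 genes overlap.

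Per length, Setd8 and Ehmt2 had the highest mean levels of the set in both groups. Levels per length are the deposited estimates, read as fragments per kilobase of transcript relative to all mapped fragments (FPKM), without further scaling, so that only ranks and ratios within a library are compared. Setd8, which places the first methyl group on H4K20, had 119 ± 14.6 in CD24Mid and 57.2 ± 7.01 in CD24Neg (SD, n = 4 each) and ranked first in every CD24Mid library and between 1 and 3 in CD24Neg. Ehmt2 (G9a), a writer of H3K9 dimethylation, had 86.8 ± 10.8 in CD24Mid and 56.8 ± 9.66 in CD24Neg. Smyd2 held place 3 in all CD24Mid libraries and places 20 to 23 in CD24Neg. Whsc1 held places 5 to 9 in CD24Mid and 24 to 27 in CD24Neg, and Suv39h1 places 7 to 8 in CD24Mid and 30 to 34 in CD24Neg. At the low end stood Kdm8 and Suv39h2, with Suv39h2 at place 39 in every CD24Neg library.

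The enzymes of H3K9 methylation at heterochromatin, Suv39h1 and Suv39h2, were much higher in CD24Mid. Both write trimethylation of H3K9, and they are partly redundant at pericentric repeats in the mouse. Suv39h1 had 56.1, 59.4, 51.3 and 56 CPM in the CD24Mid libraries, against 15.5, 11.5, 13.4 and 17.9 CPM in the CD24Neg libraries. Every CD24Mid library lay above every CD24Neg library, and expression was 3.84-fold that of CD24Neg (a log2 change of 1.94 ± 0.14 SE, adjusted p = 5.68e-07 by edgeR). Suv39h2 was rarer, with 8.39, 9.72, 11 and 11.5 CPM in the CD24Mid libraries, against 1.14, 1.5, 1.82 and 1.55 CPM in the CD24Neg libraries. These values rest on 930 reads over the CD24Mid libraries and 61 over the CD24Neg libraries. The groups were again apart, and Suv39h2 had the largest change of the 39 (6.63-fold, a log2 change of 2.73 ± 0.20 SE, adjusted p = 7.79e-07 by edgeR), at a log2 fold change above that of 95.4% of all genes tested.

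A similar size of change was seen in a pair of H3K36 writers. Smyd2, a SET and MYND domain enzyme that also methylates non-histone proteins such as p53, had 72.7, 85.6, 69.2 and 64.2 CPM in the CD24Mid libraries, against 15.1, 15.4, 11.5 and 14.5 CPM in the CD24Neg libraries (a log2 change of 2.38 ± 0.13 SE, adjusted p = 1.85e-07 by edgeR). Whsc1 (Nsd2), which writes H3K36 dimethylation, had 96.3, 115, 137 and 131 CPM in the CD24Mid libraries, against 28.6, 39.9, 43.2 and 44.7 CPM in the CD24Neg libraries (a log2 change of 1.61 ± 0.16 SE, adjusted p = 6.19e-06 by edgeR). In both genes the lowest CD24Mid library was above the highest CD24Neg library, and the gap was wider in Smyd2 as a ratio. These 4 writers kept their call under every scaling, but the scalings other than TMM could only enlarge an increase. Unscaled totals gave log2 fold changes between 2.56 (Whsc1) and 3.67 (Suv39h2). The dividing cell markers moved in the same direction, with all 27 higher in CD24Mid at log2 fold changes between 1.33 and 3.74 and a summed level of 2893 to 3680 CPM in CD24Mid, against 326 to 645 CPM in CD24Neg; their part in the change of the 4 writers was not tested.

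Promoter sequence was available from RefSeq (build GRCm38.p6) for 27 of the 39 genes, as the 250 bases before each start. The windows below belong to 3 of the 4 writers with the largest change and, for contrast, to Suv420h2, an H4K20 writer that was higher in CD24Neg. They lie at chrX:8074761-8075010 (Suv39h1, minus strand), chr2:3474987-3475236 (Suv39h2, minus strand), chr1:189922292-189922541 (Smyd2, minus strand) and chr7:4739877-4740126 (Suv420h2, plus strand), and are written 5′ to 3′ on the strand of the gene. Capitals mark matches to CCAAT, or to an E2F-type site taken as TTTCGCGC, TTTGGCGC, TTTCCCGC or TTTGCCGC, on either strand.
Suv39h1: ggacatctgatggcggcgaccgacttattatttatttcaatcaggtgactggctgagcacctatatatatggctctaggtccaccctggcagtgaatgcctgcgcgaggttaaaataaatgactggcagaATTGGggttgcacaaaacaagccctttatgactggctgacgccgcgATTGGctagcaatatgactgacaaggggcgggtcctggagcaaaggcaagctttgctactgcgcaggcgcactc
Suv39h2: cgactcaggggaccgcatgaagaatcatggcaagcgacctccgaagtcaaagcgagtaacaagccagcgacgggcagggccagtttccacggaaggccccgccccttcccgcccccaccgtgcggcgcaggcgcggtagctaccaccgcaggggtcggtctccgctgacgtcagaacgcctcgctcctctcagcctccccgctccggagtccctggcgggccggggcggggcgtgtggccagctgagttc
Smyd2: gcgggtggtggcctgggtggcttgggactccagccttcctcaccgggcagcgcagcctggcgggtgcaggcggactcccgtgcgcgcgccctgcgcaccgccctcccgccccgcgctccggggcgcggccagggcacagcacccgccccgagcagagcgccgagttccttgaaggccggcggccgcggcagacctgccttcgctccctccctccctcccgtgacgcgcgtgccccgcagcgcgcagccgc
Suv420h2: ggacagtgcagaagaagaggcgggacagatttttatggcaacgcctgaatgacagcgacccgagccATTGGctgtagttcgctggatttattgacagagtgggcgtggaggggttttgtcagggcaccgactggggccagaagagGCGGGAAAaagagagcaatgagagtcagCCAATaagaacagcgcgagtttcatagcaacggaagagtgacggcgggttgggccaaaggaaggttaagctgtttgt
The Suv39h1 window holds CCAAT on the opposite strand at 74 and 120 bases before the start. The windows of Suv39h2 and Smyd2 hold neither motif. That of Suv420h2 holds an E2F-type match at 105 bases and CCAAT at 77 and 184 bases before the start. Over the 38 windows of the 27 genes, 2 (5.26%) held an E2F-type match, against 1.86% of the 32851 windows in the table, and the other of these is at a further start of Suv39h1. CCAAT was found in 14 of the 38 (36.8%), against 33.8% of all windows. A match describes the letters and is not a site. The windows of the enzymes were rich in CpG, with a median of 21.5 CpG and 66.4% GC, against 6 CpG and 52.4% GC over all windows. The background windows were not limited to genes expressed here, whereas the enzymes were all expressed.

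The writers of H3K4 methylation changed little and in both directions. Of 7, 3 were higher in CD24Mid (Setd1b, Kmt2a, Setd1a), Kmt2b was higher in CD24Neg and 3 were not called, with a median log2 fold change of -0.04. Setd1b, the catalytic subunit of a COMPASS complex that writes trimethylation at promoters, had 52.9, 56.7, 61.4 and 61.6 CPM in the CD24Mid libraries, against 37.9, 35.5, 31.7 and 30.1 CPM in the CD24Neg libraries. All CD24Mid libraries were above all CD24Neg libraries (a log2 change of 0.79 ± 0.11 SE, adjusted p = 5.83e-05 by edgeR). Its paralog Setd1a averaged 26.3 ± 2.29 CPM in CD24Mid, against 18.3 ± 3.12 CPM in CD24Neg (a log2 change of 0.52 ± 0.14 SE, adjusted p = 0.00582 by edgeR), but its deposited estimate with shared reads was 161% above its unique count, so the unique reads see only part of this gene. Kmt2a (MLL1), needed at developmental genes, had 67, 65.4, 107 and 94.2 CPM in the CD24Mid libraries, against 53.8, 55.7, 58 and 64 CPM in the CD24Neg libraries. CD24Mid replicates 5 and 7 stood above replicates 1 and 3, and the groups did not overlap (a log2 change of 0.52 ± 0.16 SE, adjusted p = 0.0137 by edgeR).

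Kmt2b, the close paralog of Kmt2a, had 88.8, 81.4, 89.4 and 84.8 CPM in the CD24Mid libraries, against 120.5, 99.1, 97.7 and 119.6 CPM in the CD24Neg libraries. It was lower in CD24Mid with no overlap (a log2 change of -0.34 ± 0.10 SE, adjusted p = 0.0128 by edgeR), a call lost without CD24Neg replicate 2 (edgeR adjusted p = 0.0599) or replicate 8 (0.0581), and the sign turned on unscaled totals (0.60). The enhancer enzymes Kmt2c and Kmt2d, which write monomethylation, had log2 fold changes of -0.09 and -0.04 and were not called. The same held for Setd7, a writer of H3K4 monomethylation that also acts on non-histone proteins (-0.18), and for Kmt2e (0.03). Kmt2d averaged 166 ± 16 CPM in CD24Mid, against 171 ± 19.4 CPM in CD24Neg.

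**Figure D2:**
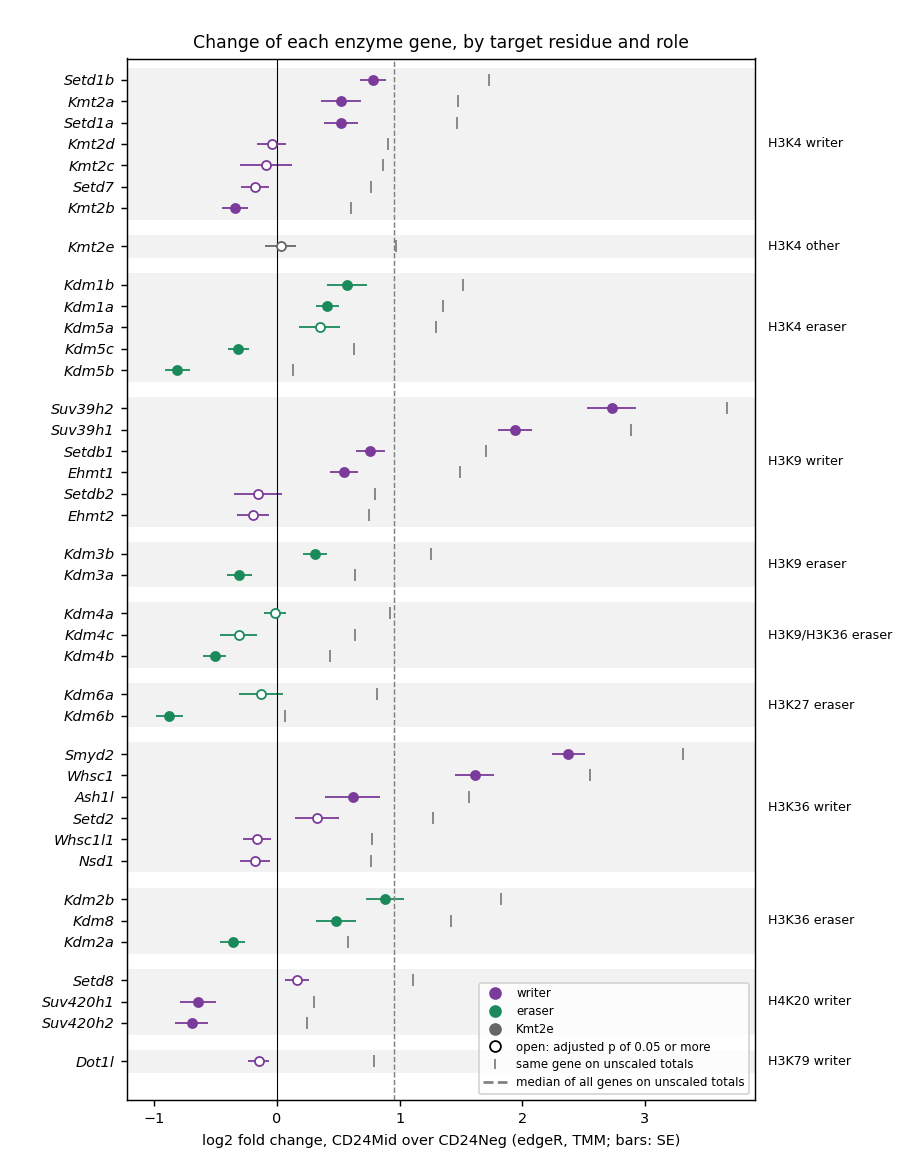
log2 fold change (CD24Mid over CD24Neg) of the 39 genes by residue and role, with SE bars; filled points have an edgeR adjusted p under 0.05, and grey ticks show the same gene on unscaled totals, whose median over all genes is the dashed line at 0.96. Suv39h2, Smyd2, Suv39h1 and Whsc1 lie beyond 0.96 on both scales, while Kdm6b, Kdm5b, Suv420h1 and Suv420h2 lie furthest left.

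Among the 5 erasers of H3K4 methylation, both flavin enzymes were higher in CD24Mid, while Kdm5b and Kdm5c were lower with TMM scaling though not on unscaled totals, and Kdm5a was not called (median log2 fold change 0.35). Kdm1a (LSD1) averaged 66.2 ± 2.84 CPM in CD24Mid, against 49.9 ± 3.64 CPM in CD24Neg (a log2 change of 0.41 ± 0.09 SE, adjusted p = 0.00217 by edgeR). Its relative Kdm1b (LSD2) averaged 26.1 ± 4.81 CPM in CD24Mid, against 17.5 ± 3.11 CPM in CD24Neg (a log2 change of 0.57 ± 0.17 SE, adjusted p = 0.00978 by edgeR), and its groups overlapped. Kdm5b (PLU-1), which removes trimethylation, had 39.6, 33.9, 39.3 and 36.9 CPM in the CD24Mid libraries, against 65.7, 62.7, 73.9 and 60.5 CPM in the CD24Neg libraries. Every CD24Mid library was below every CD24Neg library (a log2 change of -0.81 ± 0.10 SE, adjusted p = 3.13e-05 by edgeR), a call that held with upper-quartile scaling but turned to 0.13 on unscaled totals.

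Kdm5c, an X-linked member of the same family, averaged 127 ± 5.71 CPM in CD24Mid, against 158 ± 5.6 CPM in CD24Neg (a log2 change of -0.32 ± 0.09 SE, adjusted p = 0.00818 by edgeR). It was lower in CD24Mid without overlap, but the call was lost without CD24Neg replicate 4 (edgeR adjusted p = 0.0573) as well as on upper-quartile scaling (-0.09), and the sign turned on unscaled totals (0.63). Kdm5a had 45.1, 47, 65.6 and 71 CPM in the CD24Mid libraries, against 37, 42.8, 48.8 and 50.7 CPM in the CD24Neg libraries. It was not called (a log2 change of 0.35 ± 0.17 SE, adjusted p = 0.0835 by edgeR), and its groups overlapped through CD24Mid replicates 1 and 3. It was called without replicate 1 (edgeR adjusted p = 0.0324) or replicate 3 (0.0469) of CD24Mid.

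Of the 6 H3K9 writers, Suv39h1 and Suv39h2 included, 4 were higher in CD24Mid and 2 were not called, with a median log2 fold change of 0.65. Over all genes, 35.5% were higher in CD24Mid and 69.8% were called in either direction. Beside the Suv39 enzymes, Setdb1 and Ehmt1 were higher in CD24Mid, and Ehmt2 and Setdb2 were not called. Setdb1, which writes trimethylation at silenced repeats with Trim28, had 64.9, 60.5, 73.4 and 65.2 CPM in the CD24Mid libraries, against 37.4, 35.4, 35.5 and 47.5 CPM in the CD24Neg libraries. All CD24Mid libraries lay above the CD24Neg libraries, of which replicate 8 was highest (a log2 change of 0.76 ± 0.12 SE, adjusted p = 0.000181 by edgeR). Ehmt1 (GLP), which works as a dimer with Ehmt2, averaged 67.3 ± 6.17 CPM in CD24Mid, against 46.2 ± 5.3 CPM in CD24Neg (a log2 change of 0.54 ± 0.11 SE, adjusted p = 0.00138 by edgeR). Ehmt2 itself averaged 173 ± 16.1 CPM in CD24Mid, against 198 ± 30.4 CPM in CD24Neg, and was not called (log2 fold change -0.19, edgeR adjusted p = 0.205), nor was the rare Setdb2 (-0.15).

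The 5 erasers of H3K9 methylation, KDM4 genes included, showed small changes, with 1 higher in CD24Mid, 2 lower with TMM scaling though not on unscaled totals, and a median log2 fold change of -0.31. Kdm3b averaged 94.4 ± 5.28 CPM in CD24Mid, against 76.1 ± 6.56 CPM in CD24Neg, and was higher in CD24Mid (a log2 change of 0.31 ± 0.10 SE, adjusted p = 0.0155 by edgeR), while its paralog Kdm3a, known as a target of hypoxia signalling, averaged 57.3 ± 4.18 CPM in CD24Mid, against 71 ± 6.34 CPM in CD24Neg, and was lower in CD24Mid (a log2 change of -0.31 ± 0.10 SE, adjusted p = 0.0187 by edgeR). The call for Kdm3a was lost without CD24Neg replicate 4, 6 or 8 (edgeR adjusted p = 0.108, 0.0838 and 0.12), and its sign turned on unscaled totals (0.63). Of the KDM4 family, which acts on H3K9 and H3K36, Kdm4b was lower in CD24Mid. It had 26, 27.2, 26.4 and 25.9 CPM in the CD24Mid libraries, against 40.2, 39.4, 36.4 and 34.2 CPM in the CD24Neg libraries, with the groups apart (a log2 change of -0.51 ± 0.09 SE, adjusted p = 0.000581 by edgeR), and kept the call with upper-quartile scaling but turned to 0.43 on unscaled totals. Kdm4a (-0.02) and Kdm4c (-0.31, edgeR adjusted p = 0.0897) were not called.

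Writers of H3K36 methylation were higher in CD24Mid in 3 of 6 and not called in the others, with a median log2 fold change of 0.47. The share higher in CD24Mid over all genes was 35.5%. Besides Smyd2 and Whsc1, this was Ash1l, a writer of dimethylation, with 57, 67.5, 108 and 103 CPM in the CD24Mid libraries, against 38.3, 56.6, 64.5 and 58.7 CPM in the CD24Neg libraries. CD24Mid replicate 1 lay within the CD24Neg range, and replicates 5 and 7 lay far above it (a log2 change of 0.62 ± 0.22 SE, adjusted p = 0.0287 by edgeR). The call was lost without CD24Mid replicate 5 or 7 (edgeR adjusted p = 0.0873 and 0.0780) and without CD24Neg replicate 2, 4 or 8 (0.0709, 0.0529 and 0.0534). Setd2, the main writer of trimethylation in transcribed genes, had 58.7, 65.5, 90.4 and 89 CPM in the CD24Mid libraries, against 44, 62, 67 and 68.6 CPM in the CD24Neg libraries. It was not called (a log2 change of 0.33, adjusted p = 0.122 by edgeR) except without CD24Mid replicate 1 (0.0472), and its estimate with shared reads was 29.7% below the unique count. The other NSD enzymes, Nsd1 (-0.18) and Whsc1l1 (-0.17), were not called.

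Of 6 erasers of H3K36 methylation, KDM4 genes included, Kdm2b and Kdm8 were higher in CD24Mid, Kdm2a and Kdm4b were lower with TMM scaling though not on unscaled totals, and 2 were not called (median log2 fold change -0.17). Kdm2b, which recruits a Polycomb complex to CpG islands, had 34.9, 35.8, 34.9 and 31.3 CPM in the CD24Mid libraries, against 25.5, 16.3, 15.4 and 17.7 CPM in the CD24Neg libraries. The groups did not overlap, and CD24Neg replicate 2 stood above the other three CD24Neg libraries (a log2 change of 0.88 ± 0.15 SE, adjusted p = 0.00042 by edgeR). Kdm2a averaged 96.3 ± 5.43 CPM in CD24Mid, against 124 ± 12 CPM in CD24Neg, and was lower in CD24Mid (a log2 change of -0.36 ± 0.10 SE, adjusted p = 0.00829 by edgeR), a call lost without CD24Neg replicate 4 (edgeR adjusted p = 0.0675) or 6 (0.0713), with a sign that turned on unscaled totals (0.58). Kdm8, a JmjC protein reported as an eraser of H3K36 dimethylation, averaged 6.69 ± 0.315 CPM in CD24Mid, against 4.8 ± 0.614 CPM in CD24Neg (a log2 change of 0.48 ± 0.16 SE, adjusted p = 0.02 by edgeR).

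The eraser of H3K27 methylation Kdm6b and a pair of H4K20 writers were lower in CD24Mid with TMM scaling, though not on unscaled totals. Kdm6b (JMJD3) had 69.6, 55.5, 67.4 and 69.1 CPM in the CD24Mid libraries, against 116, 111, 119 and 135 CPM in the CD24Neg libraries. Its groups were well apart, with, on this scale, the largest decrease of the 39 (a log2 change of -0.88 ± 0.11 SE, adjusted p = 3.35e-05 by edgeR). The X-linked Kdm6a (UTX) averaged 48 ± 11.3 CPM in CD24Mid, against 52.5 ± 8.85 CPM in CD24Neg, and was not called (a log2 change of -0.13, adjusted p = 0.543 by edgeR). Suv420h1 and Suv420h2 convert monomethylated H4K20 to higher states after Setd8 has acted. Suv420h2 had 72.7, 66.5, 59.9 and 59.1 CPM in the CD24Mid libraries, against 95.5, 109, 87.5 and 127 CPM in the CD24Neg libraries (a log2 change of -0.70 ± 0.13 SE, adjusted p = 0.000665 by edgeR). Suv420h1 had 38.3, 42.1, 49.5 and 49.8 CPM in the CD24Mid libraries, against 55.9, 63.5, 82.4 and 79 CPM in the CD24Neg libraries (a log2 change of -0.64 ± 0.14 SE, adjusted p = 0.00216 by edgeR). In both genes the highest CD24Mid library was below the lowest CD24Neg library, while Setd8 was not called (a log2 change of 0.16, adjusted p = 0.156 by edgeR).

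The calls of Kdm6b, Suv420h1 and Suv420h2 held with upper-quartile scaling. On unscaled totals their log2 fold changes turned to 0.07, 0.30 and 0.24, below the median of 0.96 over all genes on that scale. Dot1l, the only H3K79 writer, averaged 112 ± 4.39 CPM in CD24Mid, against 124 ± 3.23 CPM in CD24Neg. Its groups did not overlap, with CD24Neg higher, yet it was not called (a log2 change of -0.15, adjusted p = 0.145 by edgeR).

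Within a library, the summed level of the writers over that of the erasers does not depend on the scaling between libraries. Per length, the 23 writers summed to 2.67, 2.67, 2.52 and 2.40 times the 15 erasers in the CD24Mid libraries, against 2.08, 2.09, 2.03 and 2.24 times in the CD24Neg libraries. All CD24Mid ratios were above all CD24Neg ratios. These sums are not a balance of writing against erasing. The list holds no eraser for the H4K20 and H3K79 writers, Setd8 among them, and no writer for the H3K27 erasers. The difference lay with H3K36, where the ratio was 2.23 ± 0.103 in CD24Mid and 1.22 ± 0.134 in CD24Neg, and with H3K9, at 2.29 ± 0.212 in CD24Mid and 1.75 ± 0.212 in CD24Neg (SD, n = 4 each). For H3K4 it was 0.827 ± 0.0261 in CD24Mid and 0.811 ± 0.0696 in CD24Neg, a difference smaller than the spread. Of the 6 H3K36 writers, Smyd2 had the highest mean level in CD24Mid (75.8 ± 8.64, followed by Whsc1 with 34.0 ± 5.18). In CD24Neg Smyd2 had 7.63 ± 0.578, and Whsc1l1 was highest (14.8 ± 1.56), so the H3K36 difference leans on Smyd2. Suv39h1, Suv39h2, Smyd2 and Whsc1 made up 21.8% of the writer level in CD24Mid and 5.93% in CD24Neg, and without them the ratio over all residues was 2.0 ± 0.083 in CD24Mid and 1.98 ± 0.0843 in CD24Neg. These ratios are a description, since the 4 genes were left out after their values were seen.

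**Figure D3:**
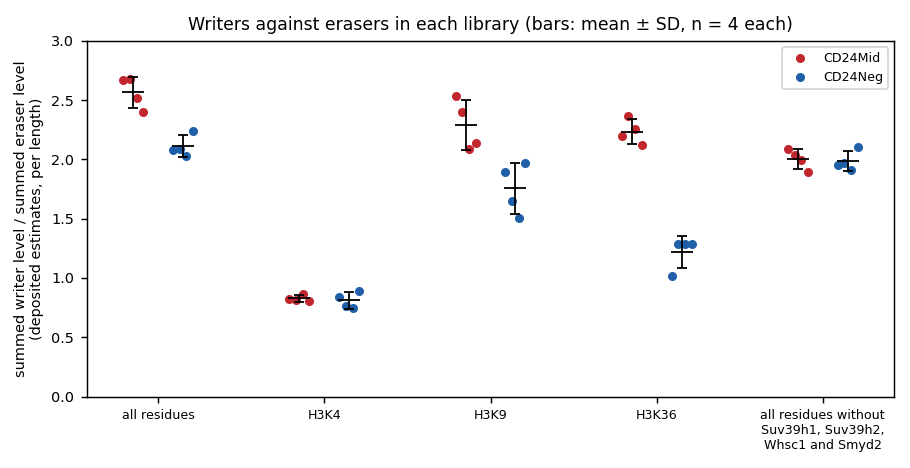
Summed per-length level of the writers divided by that of the erasers in each library, over all residues and by residue (KDM4 genes count under H3K9 and H3K36); red points are CD24Mid and blue points CD24Neg libraries, with mean and SD bars (n = 4 each). The groups are apart over all residues and for H3K9 and H3K36, and overlap for H3K4 and once Suv39h1, Suv39h2, Smyd2 and Whsc1 are left out. Over all residues, the H4K20 and H3K79 writers have no eraser in the list, and the H3K27 erasers have no writer.

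The balance between paralogs was described as the ratio of their gene-unique counts within each library, which is free of scaling between libraries, for 20 pairs within families. The pairs were chosen with results of these data known and some share a gene, so no test is given. The groups did not overlap in 12 of the 20 (60%), near the 64.4% of single genes tested whose groups did not overlap, and in 11 of the 20 on estimated counts that include shared reads.

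The widest shift was in the NSD family. The ratio of Whsc1 to Nsd1 was 0.754, 0.838, 0.83 and 0.816 in the CD24Mid libraries, against 0.198, 0.25, 0.229 and 0.253 in the CD24Neg libraries. Whsc1 to Whsc1l1 was 1.65 in CD24Mid and 0.48 in CD24Neg on average, while Whsc1l1 to Nsd1 was 0.489 in CD24Mid and 0.483 in CD24Neg with overlapping groups. The ratio of Kdm2b to Kdm2a was 0.387, 0.383, 0.342 and 0.315 in the CD24Mid libraries, against 0.231, 0.127, 0.112 and 0.149 in the CD24Neg libraries. Kdm5a to Kdm5b was 1.14, 1.38, 1.67 and 1.93 in the CD24Mid libraries, against 0.563, 0.683, 0.661 and 0.838 in the CD24Neg libraries, so Kdm5a was the more counted of the pair in every CD24Mid library and the less counted in every CD24Neg library.

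In the other pairs without overlap the balance moved less. Kmt2a to Kmt2b averaged 0.946 in CD24Mid and 0.532 in CD24Neg, Setdb1 to Setdb2 7.31 in CD24Mid and 3.77 in CD24Neg, and Ehmt1 to Ehmt2 0.39 in CD24Mid and 0.235 in CD24Neg. Kdm3b to Kdm3a averaged 1.65 in CD24Mid and 1.07 in CD24Neg, and Kdm4a to Kdm4b 2.13 in CD24Mid and 1.52 in CD24Neg. Kdm5a to Kdm5c averaged 0.442 in CD24Mid and 0.282 in CD24Neg, and Kdm5c to Kdm5b 3.4 in CD24Mid and 2.41 in CD24Neg. Suv39h2 to Suv39h1 averaged 0.181 in CD24Mid and 0.103 in CD24Neg, a log2 difference of 0.81 that was 0.46 on estimated counts. Of the 8 pairs that overlapped, Kdm6b to Kdm6a averaged 1.39 in CD24Mid and 2.31 in CD24Neg, and Suv420h1 to Suv420h2 averaged 0.694 in CD24Mid and 0.669 in CD24Neg.

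**Figure D4:**
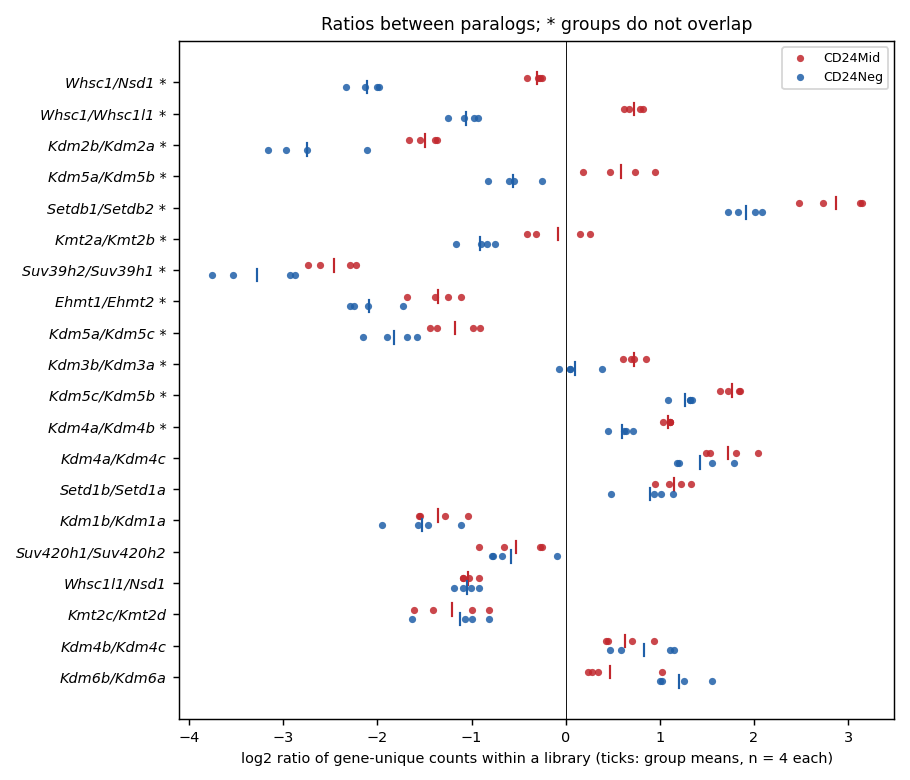
log2 ratio of gene-unique counts between paralogs in each library (red, CD24Mid; blue, CD24Neg; ticks are group means, n = 4 each), with an asterisk where the groups do not overlap. Whsc1/Nsd1, Whsc1/Whsc1l1 and Kdm2b/Kdm2a have the widest gaps, and Whsc1l1/Nsd1 and Kmt2c/Kmt2d overlap.

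Most genes that work with the enzymes were higher in CD24Mid. Of 29 partners, 19 were higher in CD24Mid and 2 in CD24Neg, against a background of 35.5% and 34.3%, and their median log2 fold change was 0.54. The genes listed as COMPASS subunits gave 8 of 11 higher in CD24Mid and 3 not called. The largest changes were in Psip1, a chromatin tether of MLL complexes (2.32), Hcfc1 (1.51), Paxip1 (1.12) and Dpy30 (0.94). Of 7 genes of the CoREST complex, which carries Kdm1a, 3 were higher in CD24Mid and Hmg20b and Phf21a were lower. The deacetylase Hdac2 averaged 88.6 ± 8.13 CPM in CD24Mid, against 30.6 ± 2.71 CPM in CD24Neg (1.54), and the rare scaffold gene Rcor2 averaged 4.57 ± 0.79 CPM in CD24Mid, against 0.436 ± 0.352 CPM in CD24Neg (3.43). Hmg20b averaged 43.1 ± 6.1 CPM in CD24Mid, against 117 ± 16.3 CPM in CD24Neg, and was lower in CD24Mid (a log2 change of -1.45 ± 0.14 SE, adjusted p = 3.8e-06 by edgeR, and -0.51 on unscaled totals). Phf21a was lower by less (-0.37), was not called with upper-quartile scaling (-0.15, edgeR adjusted p = 0.272) and turned to 0.57 on unscaled totals.

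Around H3K9 methylation, 6 of 7 partners and readers were higher in CD24Mid, against 35.5% of all genes. The HP1 genes, whose proteins bind the mark that Suv39h1 and Suv39h2 write, had log2 fold changes of 2.45 (Cbx5), 2.08 (Cbx3) and 1.07 (Cbx1). Cbx5 had 167, 225, 252 and 244 CPM in the CD24Mid libraries, against 27.9, 49.9, 38 and 46.6 CPM in the CD24Neg libraries. The groups were apart, as they were for Trim28, the corepressor that brings Setdb1 to repeats (a log2 change of 1.62 ± 0.12 SE, adjusted p = 8.02e-07 by edgeR). The estimate of Cbx3 with shared reads was 556% above its unique count, so its value covers a small part of its reads. Of 4 partners of Dot1l, Mllt1 (0.70) and Mllt6 (0.43) were higher in CD24Mid and the others were not called.

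Lysine methyltransferases and JmjC proteins outside the 39 gave a wider range. The 11 further methyltransferases tested gave 6 higher in CD24Mid and 3 higher in CD24Neg, against 35.5% and 34.3% of all genes. Ezh2, the H3K27 writer that Kdm6b and Kdm6a oppose, averaged 70.4 ± 10.4 CPM in CD24Mid, against 24.3 ± 3.96 CPM in CD24Neg (log2 fold change 1.53), and its paralog Ezh1 averaged 43.4 ± 2.55 CPM in CD24Mid, against 61.6 ± 5.31 CPM in CD24Neg (-0.51, but 0.43 on unscaled totals). Smyd5 (1.97), Smyd4 (1.63) and Setd6 (1.11) were also higher in CD24Mid, while Setd4 (-1.17) and Prdm2 (-0.31) were lower, with values of -0.23 and 0.63 on unscaled totals. Of 8 further JmjC proteins tested, 4 were higher in CD24Mid, led by Hr (1.21) and Riox1 (1.21). Jhdm1d (-1.34) and Jmjd1c (-1.13) were lower in CD24Mid by more than any of the 15 erasers described above, with values of -0.39 and -0.19 on unscaled totals. Smyd1, Kdm4d, Kdm5d and Uty had too few reads to be tested. Of 4 genes of histone variants, H2afx (2.61), H2afz (1.40) and H3f3a (0.31) were higher in CD24Mid, where H2afz and H3f3a share most of their reads with copies.

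Within CD24Mid, 7 of the 39 genes had the widest spread, with the same split of the libraries. The coefficient of variation over the CD24Mid libraries was above 20% in Ash1l, Kmt2c, Setdb2, Kmt2a, Kdm6a, Kdm5a and Setd2, and in each of these replicates 5 and 7 were above replicates 1 and 3. This split was not particular to them. Whsc1, Suv39h2 and Kdm3b, among others, showed it with smaller coefficients, while Suv39h1 and Smyd2 did not. By mean effective length, which is not the length of the gene, Setdb2 and Setd2 (1882 and 2527 bases) were not among the longest of the set, whereas Kmt2a and Ash1l had 13729.6 and 9569 bases. For Setd2, whose estimate with shared reads was 29.7% below its unique count, this length is uncertain. The longest gene, Kmt2d (16919 bases), also had replicates 5 and 7 above replicates 1 and 3, but by less. Its coefficient was 9.66%, with replicate 5 above its mean by 0.20 on the log2 scale and replicate 7 at -0.03. The correlation of the CD24Mid SD, which does not show the direction of a library, with log2 effective length was 0.29 over the 39 genes. It was -0.06 over the 7627 genes whose log2 CPM averaged 4 or more. Kmt2c, among the 7, had 51.8, 57.8, 94.9 and 92.1 CPM in the CD24Mid libraries, against 58.9, 82.2, 83.5 and 90.3 CPM in the CD24Neg libraries. Across the 39 genes, the correlation of a library's deviation from its group mean with log2 effective length was -0.36 and -0.49 in CD24Mid replicates 1 and 3 and 0.54 and 0.37 in replicates 5 and 7. Over the 7627 genes, the same libraries gave -0.50, -0.45, 0.57 and 0.51. In CD24Neg, replicate 2 had the lowest values (-0.25 over the 39 genes, -0.40 over all of these genes). Genes are not independent replicates, and these correlations are a description. Whether length plays a part in the spread was not tested. The part of these deviations in the calls was not tested. Kmt2a kept its call when any 1 library was left out and Ash1l did not. Leaving out 1 library always keeps replicate 5 or 7, so these fits cannot show that part. Kdm4b, Kdm4a, Dot1l, Kdm1a and Kmt2b varied least in CD24Mid, with coefficients between 2.25% and 4.34%.

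**Figure D5:**
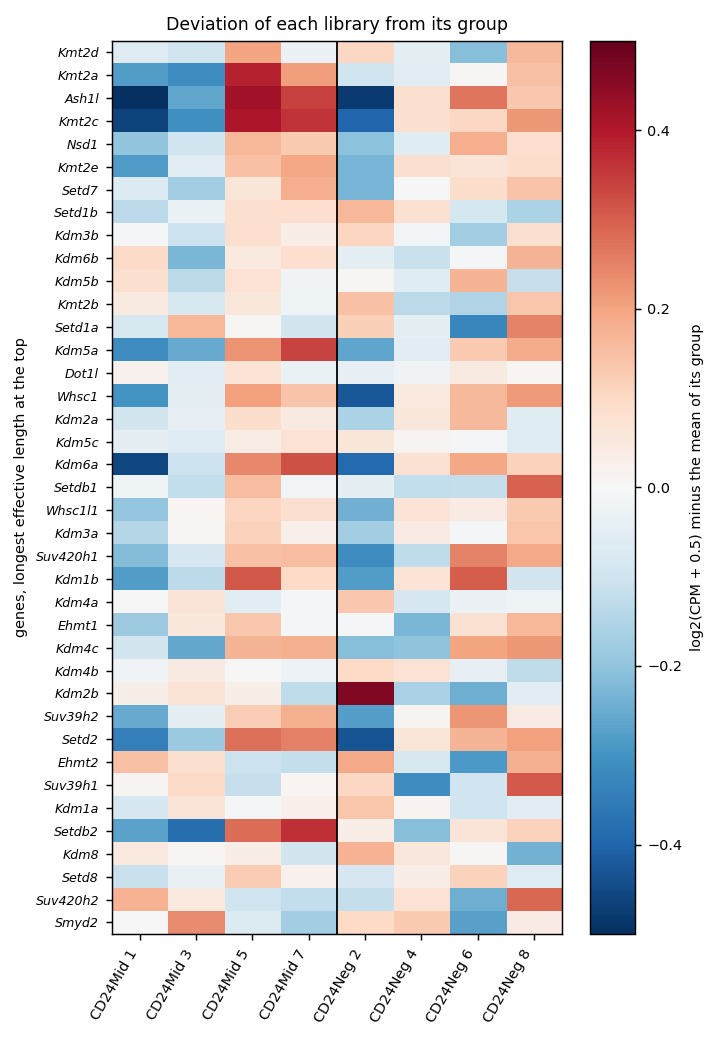
Deviation of each library from its group mean, in log2(CPM + 0.5), for the 39 genes sorted by effective length with the longest at the top; CD24Mid libraries are left of the line and CD24Neg libraries right of it. Kmt2a, Ash1l and Kmt2c are low in CD24Mid replicates 1 and 3 and high in replicates 5 and 7, while the longest gene, Kmt2d, is above its mean in replicate 5 only.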

How the data were processed

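Total RNA of sorted cells was made into libraries with a TruSeq kit, per the labels' protocols, and reads were aligned with Bowtie 0.12.8 to NCBIM37, per the submitters' processing notes. The deposited tables are those of MMSEQ, per the file headers: each gives whole-number counts of fragments unique to a gene, and the authors' expression estimate with shared reads, read here as the natural log of FPKM (fragments relative to effective length and to mapped fragments), because the deposited values then give back the unique counts (median ratio 1.00 per library). No label states that scale. The sources used here give no MMSEQ version, annotation or strand setting, so overlapping and antisense genes, and near-identical copies, are uncertain. Gene names came from a later annotation, and its coordinates were not used for counts.

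Unique counts went into the robust quasi-likelihood test of edgeR 4.0.16 (R 4.3.3), after TMM normalisation and filterByExpr, with the group as the only term. P-values of the 12840 genes were adjusted by Benjamini-Hochberg, with calls under 0.05; all 39 enzymes passed the filter. CPM are counts relative to the TMM-scaled library size (factors 1.34 to 1.42 in CD24Mid, 0.697 to 0.757 in CD24Neg), and fold changes are CD24Mid over CD24Neg. A count of 0 would have allowed up to 0.121 to 0.145 CPM in CD24Mid and 0.218 to 0.380 CPM in CD24Neg (3 counts), counting error only. Ratios between paralogs are given without a test. No library was a repeat of another: within groups, the lowest chi-square between libraries, divided by its degrees of freedom, was 10.8. Estimated counts were rounded before testing. Alternatives were upper-quartile scaling, unscaled totals, DESeq2 1.42.0 and its size factors, no filter, estimated counts, no mitochondrial genes and each library left out. All 39 enzymes are named; partners and relatives are named where called with the largest changes (at most 4 each way per role), and Ezh1 and Ezh2 always. The enzymes, lists and tests were chosen with earlier results of these data known.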

Additional observations from a re-analysis of the deposited data

Results flagged for a closer look

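In 3 of 78 groups of 4 libraries (3.85%), 1 library of an enzyme gene lay far from the other three, where chance gives about 1 in 20. Kdm6b had 55.5 CPM in CD24Mid replicate 3, below the 67.4, 69.1 and 69.6 CPM of the other CD24Mid libraries, and all 4 stayed below every CD24Neg library. Kmt2e had 56.6 CPM in CD24Neg replicate 2, below the 69.6, 70.5 and 70.8 CPM of the other CD24Neg libraries, and was not called. Setdb1 had 47.5 CPM in CD24Neg replicate 8, above the 35.4, 35.5 and 37.4 CPM of the others, and below every CD24Mid library.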

How the results depend on the processing

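Suv39h2, Suv39h1, Smyd2 and Whsc1 kept direction and call under every alternative run, and DESeq2 with its own Wald test gave the same calls for the 39 enzymes. All 15 enzymes higher in CD24Mid kept that call under all 3 scalings. Upper-quartile scaling and unscaled totals shift all genes toward CD24Mid and could only enlarge these increases, so they are no check on them. On unscaled totals, edgeR called 8959 genes toward CD24Mid and 1659 toward CD24Neg; of the enzymes it called 35 toward CD24Mid and 0 toward CD24Neg, all 39 values being positive. These were 21 and 0 for writers and 13 and 0 for erasers, and 1 partner was higher in CD24Neg. With upper-quartile scaling and with no filter on low counts alike, 5 enzymes, 3 erasers and 1 partner were higher in CD24Neg, Kmt2b, Kdm5c, Kdm3a and Kdm2a losing the call. Unscaled totals shift all genes alike, to a median log2 fold change of 0.96, so all 20 enzymes negative with TMM turned positive by construction: Kmt2b 0.60, Kmt2c 0.86, Kmt2d 0.90, Setd7 0.76, Kdm5b 0.13, Kdm5c 0.63, Setdb2 0.80, Ehmt2 0.75, Kdm3a 0.63, Kdm4a 0.93, Kdm4b 0.43, Kdm4c 0.63, Kdm6a 0.82, Kdm6b 0.067, Nsd1 0.76, Whsc1l1 0.78, Kdm2a 0.58, Suv420h1 0.30, Suv420h2 0.24 and Dot1l 0.79 on the log2 scale. With upper-quartile scaling 10 uncalled genes turned positive: Kmt2c 0.14, Kmt2d 0.18, Setd7 0.046, Setdb2 0.071, Ehmt2 0.026, Kdm4a 0.20, Kdm6a 0.10, Nsd1 0.044, Whsc1l1 0.059 and Dot1l 0.076. So did Kmt2c 0.020, Kmt2d 0.064 and Kdm4a 0.083 with no filter, and Kdm4a 0.011 without mitochondrial genes. On estimated counts Kdm4a turned to 0.00036 and Kmt2e to -0.024, and the call of Kdm3a was lost (edgeR adjusted p = 0.059). Leaving out each library in turn gave between 14 and 17 enzymes higher in CD24Mid and between 6 and 9 in CD24Neg, 3 to 6 erasers and 1 to 2 partners higher in CD24Neg; the lowest eraser count came without CD24Neg replicate 4, and the lowest partner count without CD24Neg replicate 6 or 8. The log2 fold changes then ran from -0.22 to 0.050 for Kmt2c, -0.11 to 0.058 for Kmt2d, -0.033 to 0.12 for Kmt2e, -0.037 to 0.062 for Kdm4a and -0.24 to 0.0014 for Kdm6a. The cause of these changes was not tested beyond the scaling itself. No paired analysis was possible because no replicate number is shared between CD24Mid and CD24Neg, and the labels do not say whether libraries with adjacent numbers were sorted together. Depth was no limit for most enzymes, with Suv39h2 and Kdm8 the least counted.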
